A study of Mus musculus with 12 samples.

Results

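Smooth muscle, the peritubular myoid cells of the testis and the pericytes of small vessels share a set of contractile and surface genes, and 35 of these genes are described here in fetal mouse gonads. They were chosen by gene symbol and fall into 19 contractile genes, 10 genes of adhesion and actin linkage, 2 transcriptional regulators and 4 pericyte genes. Of the 35, 33 had a transcript cluster of their own, out of 30702 genes with one on the array. Each transcript cluster pools the probes of 1 locus. Pdlim7, a LIM-domain adaptor of actin fibres, shares its cluster with a microRNA gene, and Itga1, a collagen-binding integrin subunit, shares its cluster with Pelo, so neither was measured.

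Gonads were taken at 14.5 days post coitum (dpc), separated from the mesonephros, and 1 pair from 1 embryo was hybridised to each Affymetrix Mouse Transcriptome Array 1.0. Rosa26-CAG-LSL-Foxl2+/f mice were crossed with Sf1-cre+/Tg mice on a mixed 129Sv and C57Bl/6J background, and all 12 embryos carried Sf1-cre (Sf1-cre+/Tg). Both control groups, XY control and XX control, had wild-type Rosa26 (Rosa26+/+), and XY FOXL2+ embryos had the Rosa26-CAG-LSL-Foxl2+/f allele, with 4 arrays in each of the 3 groups. Sf1-cre drives Cre in somatic cells of the gonad, where Cre removes the stop cassette (LSL) and the CAG promoter then transcribes Foxl2, a transcription factor of granulosa cells. Whether Cre acted in myoid cells or pericytes was not measured. The whole gonad was measured, so in these bulk samples fewer cells of a type and less RNA per cell cannot be told apart.

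Smooth muscle contracts when myosin light chain kinase phosphorylates the regulatory light chain of a myosin that pulls on actin filaments, and myosin phosphatase reverses this. Transcription of many of these genes depends on serum response factor, which binds the CArG box with the co-activator myocardin or its relatives. In the testis, peritubular myoid cells are a flat smooth muscle-like layer around the cords, a layer that the fetal ovary lacks, while pericytes wrap capillaries in both gonads. Several of the genes are not specific to either cell: Pdgfrb and Mcam are also found in other cells of the interstitium, and Tpm1, Flna, Actn1 and Vcl serve the cytoskeleton of most cells.

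Signals are given on the log2 scale of the deposited values, whose array medians ran from 6.149 to 6.296. Y-linked genes that XX gonads lack read on average 5.99 to 6.94 in XX arrays, so signals in that range are not shown to be above background and changes that end there are compressed. Foxl2 read 5.07, 5.55, 5.44 and 5.33 in XY control replicates 1 to 4, 7.67, 8.62, 7.18 and 6.72 in XY FOXL2+ and 8.08, 7.30, 7.14 and 7.39 in XX control. Each XY FOXL2+ array was above each XY control array for Foxl2, and replicates 3 and 4 had the lowest values of their group. Over all clusters XY FOXL2+ replicate 1 stood apart on the second principal component (14.1% of the variance) and replicates 3 and 4 on the third (10.5%). Groups were compared with limma over all 65956 clusters, two-sided, and a gene is called where its Benjamini-Hochberg adjusted p is under 0.05. The FOXL2 effect is XY FOXL2+ minus XY control, and the sex difference is the XX control mean minus the XY control mean. They share the XY control arrays, so their values are set side by side and are not independent of each other.

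In XY FOXL2+ gonads 15 of the 33 measured genes fell and none rose, against 4.67% of all clusters called lower and 2.46% called higher by limma. At an unadjusted p under 0.05, 16 of the 33 were lower and 3 higher, against 7472 and 5668 of all 65956 clusters. By role, 9 of 19 contractile genes fell, 2 of 8 measured adhesion genes, neither regulator, and all 4 pericyte genes. The median log2 difference was -0.37 over the 33 genes, -0.37 over the contractile, -0.10 over the adhesion and -1.14 over the pericyte genes, against 0.003 over all clusters. Of the 33 genes 30 lay above the median signal of all clusters, and among named clusters above the median signal the share called lower was 7.26%. For all 15 genes that fell, the XY FOXL2+ arrays did not overlap the XY control arrays. The genes were called on these same arrays, so the separation is no further support, and its share over all clusters was not computed.

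The XX control gonad, beside XY control, had lower signal for 21 of the 33 genes and higher signal for 3, against 10.2% and 7.17% of all clusters. Among named clusters above the median signal 16.6% were called lower. The 21 were 13 contractile, 4 adhesion and all 4 pericyte genes, and the 3 higher were Itga8, Cnn3 and Synpo2. The median log2 difference was -0.74 over the 33 genes and -0.03 over all clusters. All 15 genes that fell in the FOXL2 effect were among the 21. The 6 lower in XX control alone by these calls were Mylk, Tpm1, Cald1, Kcnmb1, Actn1 and Flna. For 28 of the 33 genes the mean of XY FOXL2+ lay between the means of both controls. The shares of all clusters with such a mean, or called lower in both comparisons, were not computed. The plot of log2 differences by role shows both comparisons side by side.

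**Figure D1:**
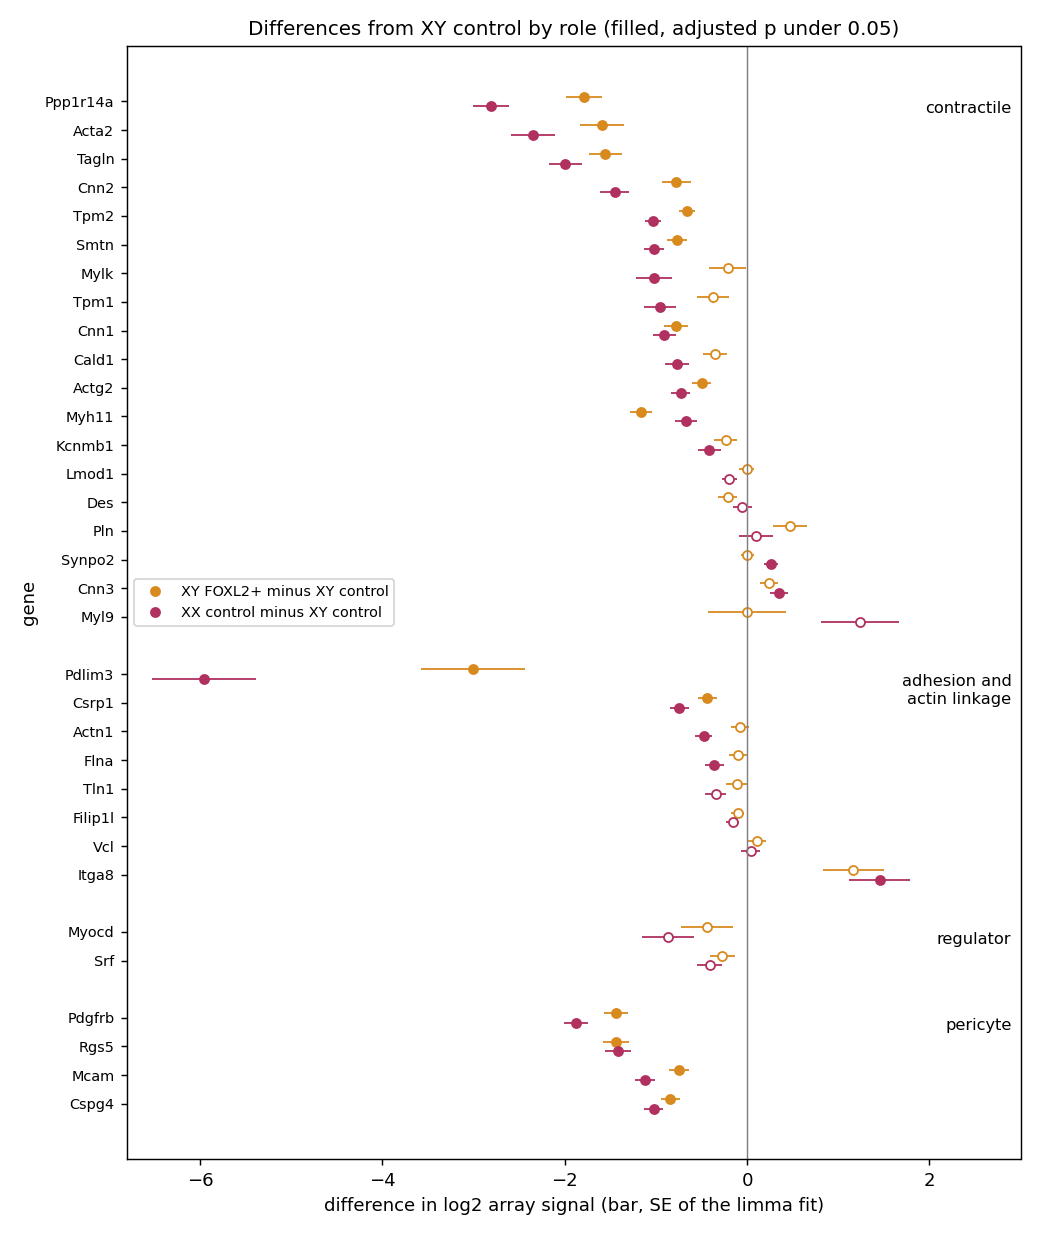
Log2 difference in array signal from XY control (horizontal axis) for each of the 33 measured genes (vertical axis), grouped by role. Orange is XY FOXL2+ and red is XX control, bars are the SE of the limma fit, and filled points have an adjusted p under 0.05; Pdlim3 lies farthest to the left in both comparisons and all 4 pericyte genes are filled and negative in both.

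Of the 19 contractile genes 9 fell in XY FOXL2+ gonads, with the largest differences for Ppp1r14a, Acta2 and Tagln, and 10 were not called. Ppp1r14a, which encodes CPI-17, the inhibitor of myosin phosphatase, read 10.59, 10.79, 10.86 and 10.54 in XY control replicates 1 to 4, 9.0, 8.18, 9.36 and 9.10 in XY FOXL2+ and 7.91, 8.03, 7.81 and 7.80 in XX control. It fell by 1.78 on the log2 scale (SE 0.20, adjusted p = 0.00012), a 3.44-fold reduction, and was 6.99-fold lower in XX control (adjusted p = 1.57e-06). The 3 groups did not overlap for this gene, with XY control highest and XX control lowest.

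Acta2, smooth muscle α-actin and the usual marker of peritubular myoid cells, read 14.47, 14.62, 14.48 and 14.56 in XY control replicates 1 to 4, 12.79, 12.18, 13.44 and 13.36 in XY FOXL2+ and 12.38, 12.24, 11.71 and 12.41 in XX control. The 4 XY control arrays lay within a narrow band, and XY FOXL2+ replicates 3 and 4 stood higher than replicates 1 and 2. Its difference was -1.59 (SE 0.24, adjusted p = 0.0013) in the FOXL2 effect, 3.01-fold, and -2.35 (SE 0.24, adjusted p = 2.48e-05) in the sex difference, 5.09-fold. Tagln, which encodes the actin-binding protein transgelin, read 9.67, 10.34, 10.11 and 9.92 in XY control replicates 1 to 4, 8.61, 8.13, 8.42 and 8.66 in XY FOXL2+ and 8.12, 8.13, 7.54 and 8.30 in XX control. XY control lay above all other arrays, while XY FOXL2+ and XX control overlapped. The difference was -1.55 (SE 0.18, adjusted p = 0.000189) in the FOXL2 effect and -1.99 (SE 0.18, adjusted p = 1.14e-05) in the sex difference.

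Myh11, the smooth muscle myosin heavy chain, had an order of its own among the contractile genes that fell. It read 9.0, 9.26, 9.30 and 9.34 in XY control replicates 1 to 4, 8.32, 7.77, 8.15 and 8.02 in XY FOXL2+ and 8.71, 8.46, 8.45 and 8.60 in XX control. All 4 XY FOXL2+ arrays lay below all 4 XX control arrays, which lay below all 4 XY control arrays. The FOXL2 effect was -1.16 (SE 0.12, adjusted p = 8.24e-05), a 2.24-fold reduction, and the sex difference -0.67 (SE 0.12, adjusted p = 0.00193). XY FOXL2+ was also called lower than XX control, by -0.49 (adjusted p = 0.0359), against 2.64% of all clusters lower in that comparison. That call ended without XY FOXL2+ replicate 2, 3 or 4 or without any single XX control array, with adjusted p from 0.0524 to 0.0971. It also ended after quantile normalization (0.0593), with only the 2 groups compared (0.0807) and with the replicate number added to the fit (0.0619).

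**Figure D2:**
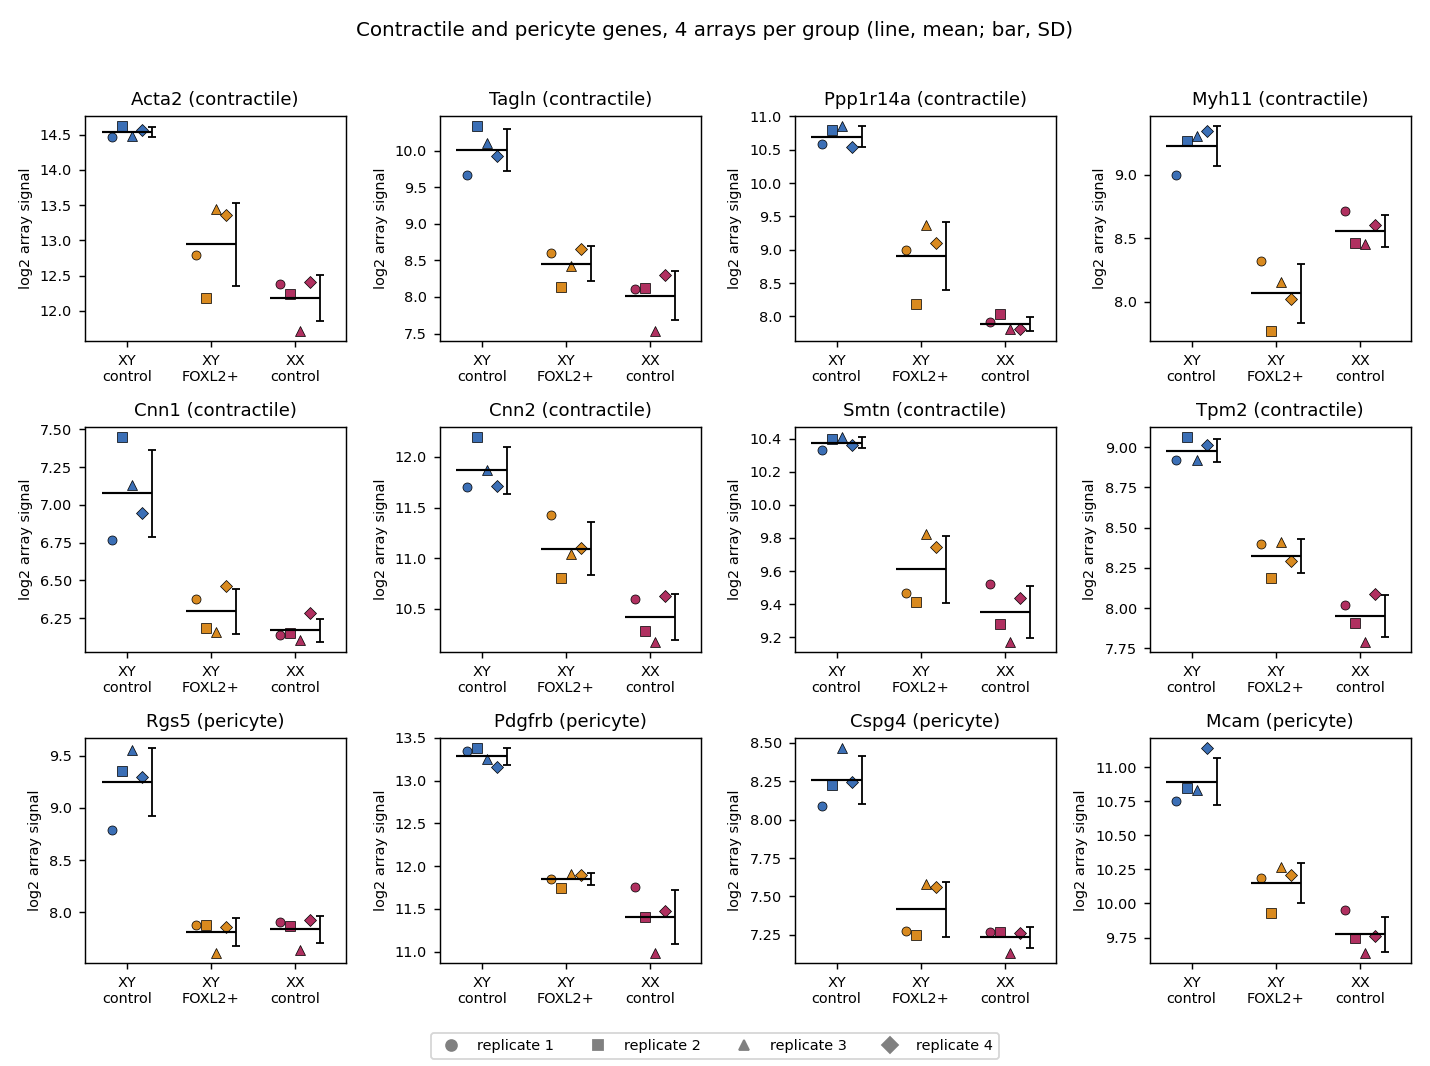
Log2 array signal (vertical axis) of contractile and pericyte genes on each of the 4 arrays of XY control, XY FOXL2+ and XX control (horizontal axis), with a marker for each replicate number, a line at the mean and a bar for the SD. Acta2 in XY FOXL2+ spans 12.18 to 13.44, while Pdgfrb in the same arrays spans 11.75 to 11.90.

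Calponins bind actin and restrain myosin, and the 3 family members did not share a direction. Cnn1, the smooth muscle calponin, had signals of 7.08 ± 0.29 in XY control, 6.30 ± 0.15 in XY FOXL2+ and 6.17 ± 0.08 in XX control (mean ± SD, n = 4). It fell with a log2 difference of -0.78 (SE 0.13, adjusted p = 0.00239), and its values in both lower groups lay where silent genes read. Cnn2, a more widely expressed calponin, read 11.70, 12.20, 11.87 and 11.71 in XY control replicates 1 to 4, 11.43, 10.80, 11.04 and 11.10 in XY FOXL2+ and 10.59, 10.28, 10.17 and 10.62 in XX control. It fell as well, by -0.78 (SE 0.16, adjusted p = 0.0089), and was 2.74-fold lower in XX control (log2 -1.45, adjusted p = 3.87e-05). Cnn3, the acidic calponin, was not called in the FOXL2 effect (0.24, adjusted p = 0.175). In XX control Cnn3 was higher by 0.35 (adjusted p = 0.0232), a call that ended without XX control replicate 2 (0.068) or 4 (0.0606) or XY control replicate 3 (0.0743) or 4 (0.0635).

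Smtn, whose product smoothelin marks contractile smooth muscle, read 10.33, 10.40, 10.41 and 10.36 in XY control replicates 1 to 4, 9.47, 9.41, 9.82 and 9.74 in XY FOXL2+ and 9.52, 9.28, 9.17 and 9.44 in XX control. The XY control arrays were above all others. Its FOXL2 effect was -0.77 (SE 0.11, adjusted p = 0.000998) and its sex difference -1.02 (SE 0.11, adjusted p = 3.91e-05). Tpm2, a tropomyosin that lies along the actin filament, read 8.92, 9.06, 8.92 and 9.01 in XY control replicates 1 to 4, 8.40, 8.19, 8.41 and 8.29 in XY FOXL2+ and 8.02, 7.91, 7.79 and 8.09 in XX control. Here too XY control stood above both other groups. Its FOXL2 effect was -0.66 (SE 0.09, adjusted p = 0.000623) and its sex difference -1.03 (SE 0.09, adjusted p = 7.7e-06). Actg2, the enteric smooth muscle actin, also fell, with -0.50 (SE 0.10, adjusted p = 0.0114) in the FOXL2 effect and -0.72 (SE 0.10, adjusted p = 0.000325) in the sex difference. Its mean was 7.35 in XY control, and its means of 6.86 in XY FOXL2+ and 6.63 in XX control lay where silent genes read. The actin genes are similar in their coding sequence, so that probes of one may bind transcripts of another. What part of the Actg2 signal came from Acta2 transcripts was not tested, and no probe sequences were compared. Acta1, the skeletal muscle actin, differed by -0.03 (adjusted p = 0.855) in the FOXL2 effect.

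Mylk, Tpm1 and Cald1 were lower in XX control but were not called in XY FOXL2+, where the arrays split. Mylk, the kinase that starts contraction by phosphorylating the myosin light chain, read 9.59, 9.68, 9.69 and 9.54 in XY control replicates 1 to 4, 9.05, 8.87, 9.90 and 9.84 in XY FOXL2+ and 8.75, 8.63, 8.43 and 8.61 in XX control. In XY FOXL2+, replicates 3 and 4 read above every XY control array and replicates 1 and 2 below. XY FOXL2+ minus XY control gave -0.21 (SE 0.20, adjusted p = 0.624) and the sex difference -1.02 (SE 0.20, adjusted p = 0.00288). Tpm1, another tropomyosin, had XY FOXL2+ values of 12.27, 11.81, 12.77 and 12.80, against 12.68 to 12.87 in XY control and 11.75 to 11.91 in XX control. Cald1, which encodes the actin-binding protein caldesmon, had XY FOXL2+ values of 11.78, 11.48, 12.18 and 12.001, against 12.12 to 12.27 and 11.32 to 11.58. For both genes replicates 3 and 4 lay near XY control and replicate 2 near XX control. The FOXL2 effect was -0.37 (SE 0.18, adjusted p = 0.269) for Tpm1 and -0.36 (SE 0.13, adjusted p = 0.141) for Cald1, and Cald1 was called without XY FOXL2+ replicate 3 (-0.46, adjusted p = 0.036). The sex difference was -0.95 (SE 0.18, adjusted p = 0.00201) for Tpm1 and -0.77 (SE 0.13, adjusted p = 0.00113) for Cald1.

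Myl9, the regulatory light chain that Mylk phosphorylates, went the other way, and is given array by array although the test did not call it. It read 12.50, 12.93, 12.71 and 12.55 in XY control replicates 1 to 4, 13.51, 13.83, 11.67 and 11.68 in XY FOXL2+ and 14.39, 13.69, 13.56 and 14.0 in XX control. XX control lay above XY control on every array, and XY FOXL2+ replicates 1 and 2 read near XX control while replicates 3 and 4 read below every XY control array. The mean difference in the FOXL2 effect was 0.00 (SE 0.43, 95% interval -0.92 to 0.92), which leaves room for a change of either sign. The sex difference was 1.24 (SE 0.43, adjusted p = 0.0666), and it was called when only both control groups were fitted (adjusted p = 0.000363). XY FOXL2+ minus XX control gave -1.24 (95% interval -2.16 to -0.31, adjusted p = 0.127).

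The remaining 5 contractile genes gave small differences at low or moderate signal. Kcnmb1, the β1 subunit of the large-conductance calcium-activated potassium channel, was not called in the FOXL2 effect (-0.23, adjusted p = 0.327). It was lower in XX control by -0.41 (adjusted p = 0.0349) with overlapping arrays, and this call ended after quantile normalization (0.071) and without XX control replicate 2, 3 or 4 or XY control replicate 1, 3 or 4 (0.0532 to 0.102). Synpo2, a Z-disc and stress fibre protein, was higher in XX control by 0.26 (adjusted p = 0.0247), a call that ended without XX control replicate 1, 2 or 3 or XY control replicate 2 or 3 (0.0566 to 0.0773). Its FOXL2 effect was 0.00 (adjusted p = 0.99). Des, the intermediate filament protein desmin, differed by -0.21 (adjusted p = 0.292) in the FOXL2 effect and -0.05 (0.829) in the sex difference. Lmod1, which nucleates actin filaments in smooth muscle, differed by 0.00 (0.989) and -0.19 (0.138). Pln, phospholamban, the brake on the calcium pump of the sarcoplasmic reticulum, differed by 0.47 (0.17) and 0.10 (0.808). Its XY FOXL2+ arrays read 5.60, 6.36, 5.17 and 5.43, within or below the range of silent genes, and Pln was called higher without XY FOXL2+ replicate 3 (0.63, adjusted p = 0.0401).

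Among the adhesion and actin linkage genes, Pdlim3 had the largest difference of all 33 genes in both comparisons. Pdlim3, a PDZ and LIM domain protein that binds α-actinin, read 12.97, 12.87, 13.55 and 13.83 in XY control replicates 1 to 4, 9.32, 8.64, 11.27 and 11.98 in XY FOXL2+ and 7.19, 7.30, 7.37 and 7.55 in XX control. The 3 groups did not overlap, and within XY FOXL2+ replicates 3 and 4 read higher than replicates 1 and 2. XY FOXL2+ minus XY control gave -3.0 (SE 0.57, adjusted p = 0.00624), an 8.02-fold reduction, and the sex difference -5.95 (SE 0.57, adjusted p = 1.62e-05), 61.9-fold. XY FOXL2+ was above XX control by 2.95 (adjusted p = 0.00954). Pdlim3 is not restricted to muscle, and which cells of the gonad gave this signal was not tested.

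Csrp1, a LIM protein of actin bundles, fell in XY FOXL2+ with a difference of -0.44 (SE 0.10, adjusted p = 0.0226) and was lower in XX control by -0.74 (adjusted p = 0.000258). The FOXL2 call on Csrp1 ended without XY FOXL2+ replicate 2 (0.06) or 4 (0.0568), without XY control replicate 2 (0.069) or 3 (0.0699), and with only the 2 groups compared (0.0815). Itga8, the integrin subunit that pairs with β1 in mesenchymal cells, read 10.65, 11.07, 9.73 and 9.72 in XY control replicates 1 to 4, 12.02, 11.95, 10.997 and 10.87 in XY FOXL2+ and 11.79, 11.80, 11.34 and 12.07 in XX control. XX control lay above every XY control array, while XY FOXL2+ replicates 1 and 2 read with XX control and replicates 3 and 4 overlapped XY control. The sex difference was 1.46 (SE 0.34, adjusted p = 0.0083). Its FOXL2 effect of 1.16 (SE 0.34, adjusted p = 0.0558) missed the threshold and passed it after quantile normalization (0.0389), with clusters above the median signal alone (0.0392), and without XY FOXL2+ replicate 3 (0.0413) or 4 (0.0337) or XY control replicate 2 (0.024).

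The general cytoskeletal genes of this group showed small differences. Actn1, α-actinin, was not called in the FOXL2 effect (-0.08, adjusted p = 0.73) and was lower in XX control (-0.48, 0.00382). Flna, the actin cross-linker filamin A, gave -0.10 (0.678) and -0.36 (0.0317). The sex difference of Flna was no longer called after quantile normalization (0.15) or without any 1 of XX control replicates 2 to 4 or XY control replicates 1 to 3 (0.0593 to 0.0999). Tln1, talin, which links integrins to actin, gave -0.11 (0.673) and -0.35 (0.0673). Vcl, vinculin, gave 0.11 (0.619) and 0.04 (0.865), and Filip1l, a filamin A-interacting protein relative, gave -0.10 (0.464) and -0.16 (0.16). In each pair the FOXL2 effect comes first, values are log2 differences and brackets hold adjusted p.

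Neither transcriptional regulator was called in any of the 3 comparisons, although both read lower in XX control. Srf, serum response factor, read 9.44, 9.48, 9.67 and 9.94 in XY control replicates 1 to 4, 9.73, 9.13, 9.23 and 9.36 in XY FOXL2+ and 9.12, 9.27, 9.27 and 9.22 in XX control. Every XX control array was below every XY control array, and XY FOXL2+ overlapped both. Its FOXL2 effect was -0.27 (SE 0.14, adjusted p = 0.305) and its sex difference -0.41 (SE 0.14, adjusted p = 0.059). Myocd, myocardin, the co-activator restricted to smooth and cardiac muscle, read 7.71, 8.17, 8.11 and 7.91 in XY control replicates 1 to 4, 6.99, 6.76, 8.33 and 8.07 in XY FOXL2+ and 7.13, 7.21, 6.94 and 7.17 in XX control. XY FOXL2+ replicates 3 and 4 read with XY control, and replicates 1 and 2 at or below XX control. Its FOXL2 effect was -0.44 (SE 0.29, adjusted p = 0.447) and its sex difference -0.86 (SE 0.29, adjusted p = 0.056). With only both control groups fitted the sex difference was called for Srf (0.0194) and Myocd (0.000204).

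The CArG box, the element that serum response factor binds, was sought in the 250 bases before each RefSeq start site (GRCm38.p6) to set the promoters beside these values. It has 10 letters, CC and GG around a core of 6 letters A or T, and the pattern reads alike on both strands. An exact match occurred in 1.47% of all 32851 promoter windows, and a match with up to 1 C or G in the core in 8.59%. Of the 35 genes 30 had a window, and of these Srf, Cnn2, Myl9, Vcl and Filip1l held an exact match, and Acta2 and Pdlim3 held a match with 1 C or G in the core. Actg2, Myh11, Myocd, Pdgfrb and Tagln were not searched here. Of these 7 genes with an exact or near match Acta2, Cnn2 and Pdlim3 fell in XY FOXL2+, and Srf, Myl9, Vcl and Filip1l were not called. Of all 33 measured genes 15 fell, among them Ppp1r14a, Tpm2, Smtn, Cnn1, Csrp1, Rgs5, Cspg4 and Mcam, whose windows held no match. A relation between a match and a fall was not tested. A match is a run of letters and not a shown binding site, and its absence says only that the letters are not in this window.

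These 4 promoters are printed because 2 belong to genes that fell, 1 to a gene whose mean difference in the FOXL2 effect was 0.00 and 1 to the regulator itself. Capitals mark the matches. Acta2 lies at chr19:34255374-34255623 on the minus strand, Cnn2 at chr10:79988350-79988599 on the plus strand, Myl9 at chr2:156775214-156775463 on the plus strand and Srf at chr17:46556163-46556412 on the minus strand (GRCm38.p6, RefSeq, 5′ to 3′ along the gene).
Acta2: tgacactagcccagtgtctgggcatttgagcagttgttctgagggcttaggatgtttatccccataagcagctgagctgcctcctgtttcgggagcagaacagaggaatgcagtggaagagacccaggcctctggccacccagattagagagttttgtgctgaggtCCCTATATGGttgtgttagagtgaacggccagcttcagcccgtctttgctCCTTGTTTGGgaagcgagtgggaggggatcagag
Cnn2: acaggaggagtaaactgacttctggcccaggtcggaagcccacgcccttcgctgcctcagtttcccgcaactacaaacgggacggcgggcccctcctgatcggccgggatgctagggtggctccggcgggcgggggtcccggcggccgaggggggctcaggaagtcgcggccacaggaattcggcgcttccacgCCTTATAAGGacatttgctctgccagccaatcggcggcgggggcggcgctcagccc
Myl9: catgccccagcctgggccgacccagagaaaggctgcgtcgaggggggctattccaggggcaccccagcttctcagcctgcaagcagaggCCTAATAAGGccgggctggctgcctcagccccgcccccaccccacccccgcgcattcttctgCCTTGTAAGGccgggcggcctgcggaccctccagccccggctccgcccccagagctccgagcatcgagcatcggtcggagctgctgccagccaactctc
Srf: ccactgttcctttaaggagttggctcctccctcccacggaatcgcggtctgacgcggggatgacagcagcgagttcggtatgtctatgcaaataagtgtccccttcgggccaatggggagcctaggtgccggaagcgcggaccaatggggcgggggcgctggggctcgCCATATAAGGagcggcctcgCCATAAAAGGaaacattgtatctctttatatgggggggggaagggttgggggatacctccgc
The 2 matches of Acta2 begin 84 and 34 bases before the start and each has 1 G or C in the core. The match of Cnn2 begins 56 bases before the start, those of Srf 82 and 62 bases before it, and those of Myl9 161 bases (exact) and 99 bases (1 G in the core) before it.

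All 4 pericyte genes fell in XY FOXL2+ gonads, and all 4 were lower in XX control as well. Pdgfrb, the PDGF receptor that recruits mural cells to vessels, read 13.34, 13.38, 13.25 and 13.15 in XY control replicates 1 to 4, 11.85, 11.75, 11.90 and 11.89 in XY FOXL2+ and 11.76, 11.41, 10.98 and 11.48 in XX control. The 4 XY FOXL2+ arrays lay within a range of 11.75 to 11.90, far below XY control. The FOXL2 effect was -1.44 (SE 0.13, adjusted p = 2.69e-05), 2.71-fold, and the sex difference -1.88 (SE 0.13, adjusted p = 1.68e-06), 3.67-fold. Rgs5, a regulator of G protein signalling used as a pericyte marker, read 8.79, 9.35, 9.56 and 9.30 in XY control replicates 1 to 4, 7.88, 7.88, 7.61 and 7.86 in XY FOXL2+ and 7.90, 7.87, 7.64 and 7.93 in XX control. XY FOXL2+ and XX control covered nearly the same range, and every XY control array was above both. XY FOXL2+ minus XY control gave -1.44 (SE 0.14, adjusted p = 4.81e-05) and the sex difference -1.41 (SE 0.14, adjusted p = 2.51e-05).

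Cspg4, the NG2 proteoglycan of pericytes, read 8.09, 8.22, 8.47 and 8.25 in XY control replicates 1 to 4, 7.27, 7.25, 7.58 and 7.56 in XY FOXL2+ and 7.27, 7.27, 7.13 and 7.26 in XX control. XY control again stood above both other groups. The FOXL2 effect was -0.84 (SE 0.10, adjusted p = 0.000285) and the sex difference -1.02 (SE 0.10, adjusted p = 2.54e-05). Mcam, a cell adhesion molecule (CD146) of mural and endothelial cells, read 10.75, 10.84, 10.83 and 11.14 in XY control replicates 1 to 4, 10.19, 9.93, 10.27 and 10.21 in XY FOXL2+ and 9.95, 9.75, 9.64 and 9.76 in XX control. XY control was highest and XX control lower than XY FOXL2+ on most arrays. XY FOXL2+ minus XY control gave -0.75 (SE 0.11, adjusted p = 0.0013) and the sex difference -1.12 (SE 0.11, adjusted p = 2.12e-05). None of the 4 was called between XY FOXL2+ and XX control by limma, with log2 differences of -0.03 (95% interval -0.34 to 0.28) for Rgs5, 0.18 (-0.04 to 0.41) for Cspg4, 0.37 (0.13 to 0.62) for Mcam and 0.44 (0.15 to 0.73) for Pdgfrb. At an unadjusted p under 0.05, 2 of the 4 were higher in XY FOXL2+, as were 7012 of all 65956 clusters.

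The label pericyte held only in part when 12 further genes of mural cells were read. Of these, 4 fell in XY FOXL2+, 2 rose and 6 were not called, against 4.67% of all clusters called lower and 2.46% higher. Heyl (-1.35, adjusted p = 0.000105) and Notch3 (-1.05, 0.000516), a Notch target gene and a Notch receptor of mural cells, fell. So did Gucy1b1, a subunit of the nitric oxide receptor guanylate cyclase (-0.84, 0.000339), and Vtn, vitronectin (-0.36, 0.00673). Abcc9, the sulfonylurea receptor subunit of the mural potassium channel, rose by 0.82 (0.0146), and Angpt1, the angiopoietin that mural cells supply to endothelium, rose by 1.15 (0.0142). Abcc9 read 9.54, 9.69, 9.19 and 9.06 in XY control replicates 1 to 4, 10.57, 10.09, 9.97 and 10.13 in XY FOXL2+ and 9.37, 9.08, 8.72 and 9.26 in XX control, so that its XY FOXL2+ arrays were above all others. The call on Abcc9 ended without XY control replicate 3 (0.0533) and that on Angpt1 with only the 2 groups compared (0.0556). Kcnj8, the channel that pairs with Abcc9, differed by 0.57 (0.0973).

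XX control was lower than XY control for 4 of the 12, Heyl (-1.79, 5.07e-06), Notch3 (-1.55, 1e-05), Gucy1b1 (-0.95, 4.88e-05) and Vtn (-0.39, 0.00167), and Anpep, an aminopeptidase, was higher (3.10, 0.000137). Of all clusters 10.2% were called lower and 7.17% higher in the sex difference. The 6 not called in the FOXL2 effect were Kcnj8, Higd1b, Cox4i2, Ndufa4l2, Gja4 and Anpep. Of the 12, Higd1b, Ndufa4l2 and Vtn had means under 5.99 in every group, at or under the level of silent genes. Because genes listed for one cell type moved in both directions, Rgs5, Cspg4, Mcam and Pdgfrb are described as 4 named genes and not as a measure of pericytes.

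Of 8 endothelial genes limma called none lower and 2 higher in XY FOXL2+, Emcn (0.76, 0.022) and Cldn5 (0.73, 0.00739), where brackets hold log2 difference and adjusted p. Over all clusters the called shares were 4.67% lower and 2.46% higher. At an unadjusted p under 0.05, 0 of the 8 were lower and 3 higher, against 7472 and 5668 of all 65956 clusters. Pecam1, the general endothelial adhesion molecule, read 9.71, 9.99, 9.76 and 9.72 in XY control replicates 1 to 4, 9.92, 9.81, 9.83 and 9.84 in XY FOXL2+ and 9.78, 9.75, 9.89 and 9.80 in XX control, with overlap of all groups and a difference of 0.06 (0.783). The mean log2 signal of the 8 genes ranged over the arrays from 9.69 to 9.96 in XY control, 9.92 to 10.16 in XY FOXL2+ and 9.57 to 9.81 in XX control. The call on Emcn ended without XY control replicate 1 (0.0543), 3 (0.0762) or 4 (0.0679) and with only the 2 groups compared (0.0699). Between the control sexes Cdh5 (-0.65, 0.000757), Tek (-0.40, 0.0349) and Esam (-0.27, 0.0268) were lower and Kdr (0.61, 0.00604) was higher, and the calls of Tek and Esam ended in 8 and 7 of 16 alternatives (adjusted p up to 0.133 and 0.21).

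The receptors and ligands that act on smooth muscle held 1 change larger than any contractile gene's. Oxtr, the oxytocin receptor, which raises calcium in smooth muscle and myoid cells, read 9.14, 8.63, 9.32 and 8.60 in XY control replicates 1 to 4, 5.64, 5.81, 5.91 and 6.26 in XY FOXL2+ and 5.68, 5.90, 5.35 and 5.33 in XX control. Every XY control array was above 8.59 and every other array below 6.27, a level at which silent genes read, so the change is compressed. The FOXL2 effect was -3.02 (SE 0.19, adjusted p = 9.18e-07), 8.09-fold, and the sex difference -3.36 (SE 0.19, adjusted p = 2.9e-07). Of the 12 measured genes in this list 4 fell and 1 rose in XY FOXL2+, against 4.67% of all clusters called lower and 2.46% higher. The others that fell were the ligands Edn1 (-0.90, 0.00504), endothelin, Pdgfa (-0.82, 0.000108), a platelet-derived growth factor, and Tgfb2 (-0.82, 0.01), and the endothelin receptor Ednrb (0.58, 0.0149) rose.

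Pdgfb, the ligand of Pdgfrb in vessels, differed by -0.14 (0.545) in the FOXL2 effect. In the sex difference 7 of the 12 were lower and 4 higher, against 10.2% and 7.17% of all clusters. The lower ones included Oxtr (-3.36, 2.9e-07), Edn1 (-1.40, 7.12e-05), Tgfb2 (-0.97, 0.00128), Tgfb1 (-0.79, 0.0146) and Pdgfa (-0.53, 0.00108), and the higher ones were Agtr1a (1.07, 0.000115), Cav1 (0.92, 0.03), Ednrb (0.49, 0.0176) and Tgfbr1 (0.38, 0.0286). The call on Ednrb in the FOXL2 effect ended without XY control replicate 3 (0.0561) or 4 (0.0504) and with only the 2 groups compared (0.0516), and that on Tgfb2 with array weights (0.0503). In the sex difference the calls of Cav1 and Tgfbr1 each ended in 7 of 16 alternatives (up to 0.0843 and 0.0846), that of Ednrb in 3 (0.0626) and that of Tgfb1 in 1 (0.053). The plot of mural genes, receptors and ligands gives both lists in full.

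**Figure D3:**
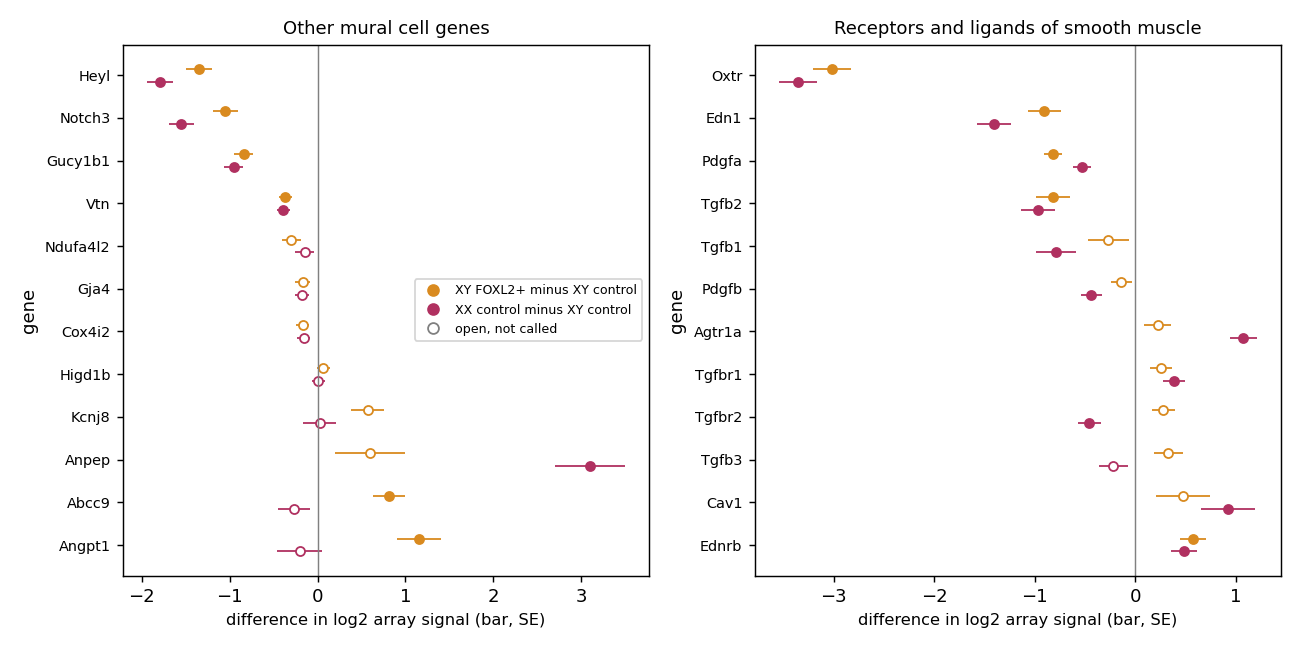
Log2 difference in array signal from XY control (horizontal axis) for 12 further mural cell genes (left) and 12 receptors and ligands of smooth muscle (right), with the SE of the limma fit; orange is XY FOXL2+, red is XX control, and filled points have an adjusted p under 0.05. Oxtr stands far to the left in both comparisons, and Abcc9 and Angpt1 are filled and positive for XY FOXL2+ and open for XX control.

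Of 14 measured partners and general targets of serum response factor, 1 was called lower and none higher in XY FOXL2+. Over all clusters the shares were 4.67% and 2.46%. The median log2 difference of the 14 genes was -0.225. At an unadjusted p under 0.05, 6 of them were lower and 1 higher, against 7472 and 5668 of all 65956 clusters. The gene called was the myosin light chain Myl12a (-0.36, 0.0348). That call ended without XY FOXL2+ replicate 1 (0.0551), 2 (0.0839) or 4 (0.0586), without XY control replicate 1 (0.102), 2 (0.0958) or 3 (0.0844), after quantile normalization (0.112) and with only the 2 groups compared (0.116). The co-activators Mrtfa (-0.07, 0.715) and Mrtfb (-0.01, 0.988), which serve serum response factor in cells without myocardin, were not called. In the sex difference 6 of the 14 were lower, led by Ccn1 (-1.97, 0.00217), a matricellular protein, Fhl2 (-0.79, 9.51e-05), a LIM protein, Elk4 (-0.51, 0.00164), Tpm4 (-0.37, 0.00783) and Myl12a (-0.36, 0.0145), and 1 was higher, Tuft1 (0.70, 0.00502). The calls of Tpm4 and Myl12a there ended after quantile normalization (0.113 and 0.0586). Of all clusters 10.2% were called lower and 7.17% higher in the sex difference.

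Markers of other cells were read beside these results. Over all clusters 4.67% were called lower and 2.46% higher in the FOXL2 effect, and 10.2% and 7.17% in the sex difference. Of 15 measured skeletal and cardiac muscle genes 1 fell (Actn2 (-0.56, 0.00687)) and 1 rose (Myf5 (0.29, 0.0468)) in XY FOXL2+, and their mean log2 signal ranged from 6.47 to 6.55 in XY control, 6.49 to 6.57 in XY FOXL2+ and 6.50 to 6.69 in XX control. Myod1 and Myf5, the defining factors of skeletal muscle, had means of 5.05 to 5.59 in the 3 groups, under the level of silent genes. Of 5 measured mesonephric genes 1 fell (Lhx1 (-0.60, 0.0203)) and none was called higher, with a median log2 difference of 0.175. At an unadjusted p under 0.05, 1 of the 5 was lower and 3 were higher, against 7472 and 5668 of all 65956 clusters. In the sex difference 1 was called lower and 2 higher, by up to 2.21. XY FOXL2+ was called lower than XX control for 2, against 2.64% of all clusters. Pax2, which marks mesonephric ducts and tubules, had means of 4.85 to 4.89. The call on Myf5 ended without any single array of these groups but XY FOXL2+ replicate 1 (0.069 to 0.112), with only the 2 groups compared (0.101) and without an intensity trend (0.052). The call on Lhx1 ended without XY FOXL2+ replicate 2 (0.0542) or XY control replicate 1 (0.0568) and with only the 2 groups compared (0.0741). Of 4 leukocyte genes Adgre1 (0.38, 0.00611) and Csf1r (0.36, 0.0268) rose, the latter call ending without XY FOXL2+ replicate 2 or 3 or any single XY control array but replicate 2 (0.0524 to 0.0859).

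Genes of Leydig and Sertoli cells were lower in the same arrays. All 4 Leydig genes and all 5 Sertoli genes measured fell in XY FOXL2+, with median log2 differences of -6.64 and -1.77, and 2 of 5 granulosa genes rose. Of all clusters 4.67% were called lower and 2.46% higher. The Leydig genes were Cyp11a1 (-8.15, 3.65e-05), Cyp17a1 (-6.90, 0.000523), Star (-6.38, 1.3e-09) and Hsd3b1 (-3.53, 0.000749), which serve steroid synthesis. The Sertoli genes were Amh (-5.48, 7.3e-06), Ptgds (-2.89, 0.000166), Dhh (-1.77, 0.00833), Sox9 (-1.08, 0.00262) and Aard (-0.81, 0.0265), and the call on Aard ended without XY FOXL2+ replicate 2 (0.0734) or XY control replicate 1 (0.0827) or 3 (0.0873) and with only the 2 groups compared (0.0668). The granulosa genes that rose were Fst (2.80, 0.00523) and Foxl2 (2.20, 0.00122) itself. The mean log2 signal of the Leydig genes was 15.78 to 16.17 in XY control, 7.91 to 11.17 in XY FOXL2+ and 7.83 to 8.07 in XX control. Of 3 measured interstitial genes Nr2f2 (-0.61, 0.0484) fell and Maf (0.65, 0.0227) rose. The call on Nr2f2 ended without XY FOXL2+ replicate 1 or 2 or any single XY control array (0.0733 to 0.125), after quantile normalization (0.0742), with array weights (0.109) and with only the 2 groups compared (0.132). That on Maf ended without XY FOXL2+ replicate 3 or 4 or XY control replicate 3 or 4 (0.0524 to 0.0793) and with only the 2 groups compared (0.0652). None of 5 germ cell genes was called in the FOXL2 effect by limma. At an unadjusted p under 0.05, 2 of the 5 were lower, as were 7472 of all 65956 clusters. The part of these cell types in the differences of the muscle and pericyte genes was not tested.

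XY FOXL2+ gonads had more signal than XX control for some of the contractile genes. In this comparison 6 of the 33 genes were higher in XY FOXL2+ and 1 lower, against 2.87% and 2.64% of all clusters, and 26 were not called. The higher ones were Pdlim3, Ppp1r14a (1.02, adjusted p = 0.00968), Mylk (0.81, 0.033), Cnn2 (0.68, 0.0249), Actn1 (0.40, 0.0312) and Tpm2 (0.37, 0.0291). Of the 15 genes lower in both other comparisons, 4 were higher in XY FOXL2+ than in XX control and 10 were not called. At an unadjusted p under 0.05, 17 of the 33 were higher and 3 lower, against 7012 and 5212 of all 65956 clusters. Of the lists around these genes, Ccn1 (1.59, 0.0252), Ccn2 (0.98, 0.0214), Fhl2 (0.50, 0.00954), Abcc9 (1.08, 0.00409), Angpt1 (1.35, 0.00777), Tgfbr2 (0.74, 0.00237) and Tgfb3 (0.55, 0.0414) were higher in XY FOXL2+, and Anpep (-2.50, 0.00304) and Agtr1a (-0.85, 0.00298) lower. The calls of Ccn1, Ccn2 and Tgfb3 each ended in 7 of 16 alternatives. Among the 33 genes, Pdlim3 and Ppp1r14a were called in every alternative run, and the other 5 lost the call in some.

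The calls on Mylk, Cnn2, Actn1 and Tpm2 against XX control each ended with only the 2 groups compared (adjusted p = 0.104, 0.0581, 0.0823 and 0.0848), and without XY FOXL2+ replicate 3 (0.0869, 0.0538, 0.0914 and 0.0856) or 4 (0.0988, 0.0668, 0.0988 and 0.0653). With the replicate number added to the fit all of these calls ended too (0.0537, 0.0502, 0.0617 and 0.0613). They also ended without XX control replicate 2 (0.0804, 0.0817, 0.0599 and 0.0885) or 3 (0.0999, 0.0841, 0.0956 and 0.0987), in the same order, and those of Mylk and Actn1 without XX control replicate 1 (0.0541 and 0.0818) or 4 (0.0798 and 0.0594). Leaving out XY FOXL2+ replicate 2 instead brought Acta2 (1.01, 0.00437), Tpm1 (0.78, 0.00176), Cald1 (0.54, 0.00835) and Mcam (0.45, 0.024) past the threshold as higher, and 10 genes were then called higher. The same setting brought Myl9 (-1.62, 0.0188) past the threshold as lower.

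The spread of the arrays within each group is given by role, as a description with no test. The median SD of the 19 contractile genes was 0.096 in XY control, 0.233 in XY FOXL2+ and 0.125 in XX control, and XY FOXL2+ had the largest SD of the 3 groups for 15 of them, as for 52.3% of all clusters. For the 4 pericyte genes the median SD was 0.163, 0.140 and 0.131, and XY FOXL2+ had the largest SD for 1. Over all clusters the median SD was 0.131, 0.163 and 0.116. In XY FOXL2+, both replicates 3 and 4 read higher than both replicates 1 and 2 for the contractile genes Acta2, Actg2, Cald1, Kcnmb1, Mylk, Ppp1r14a, Smtn and Tpm1. The same order held for Actn1, Flna and Pdlim3, for Myocd, and for the pericyte genes Cspg4, Mcam and Pdgfrb. The reverse order held for Cnn3, Des, Myl9, Pln, Synpo2, Itga8 and Rgs5. Replicates 3 and 4 had the lower Foxl2 signals of the group, and Cyp11a1, the first enzyme of steroid synthesis, read 7.69, 6.26, 10.68 and 10.92 in XY FOXL2+ replicates 1 to 4, against 16.92 to 17.23 in XY control and 6.27 to 6.32 in XX control. With 4 arrays, and these arrays picked out from their values, the relation between Foxl2 signal and the muscle genes was not tested. The heat map of single arrays shows this spread gene by gene.

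**Figure D4:**
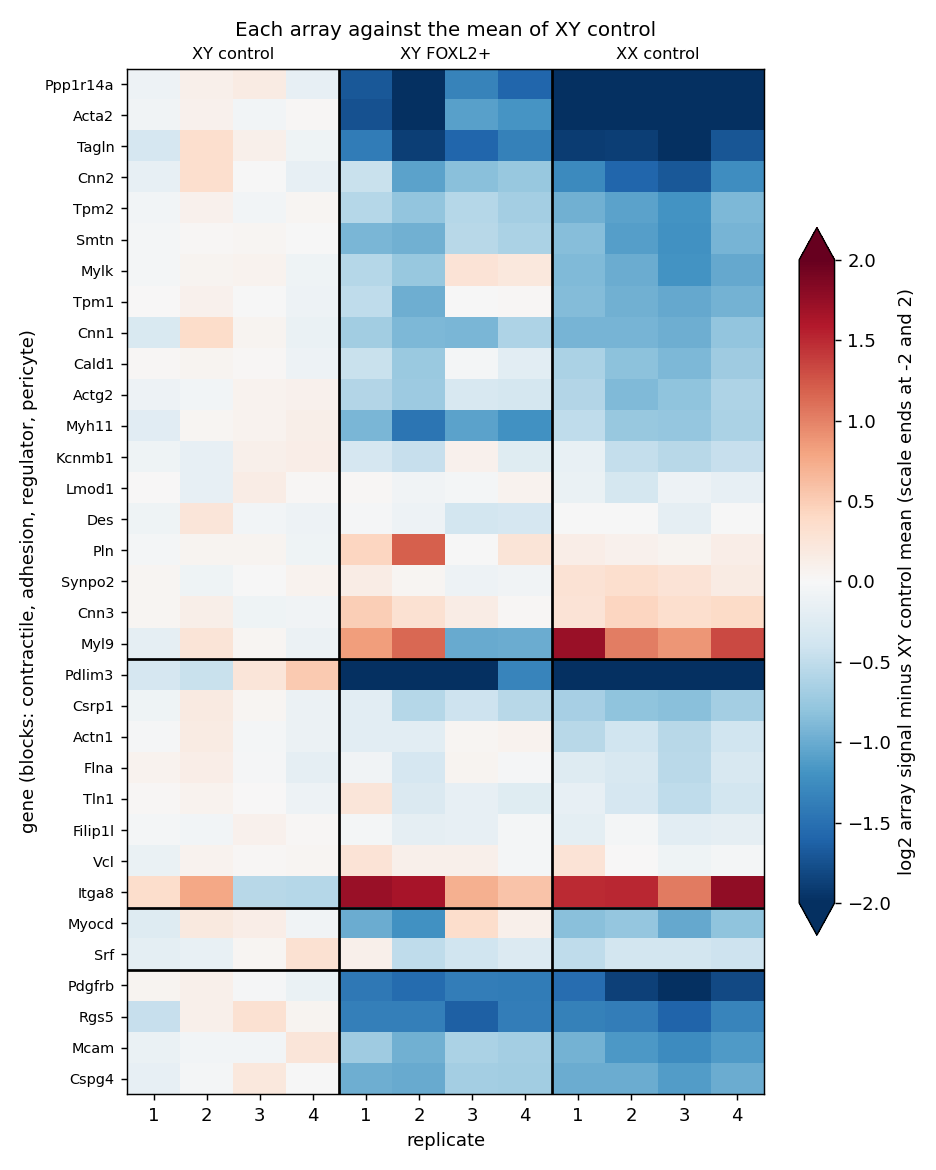
Log2 array signal of each of the 33 genes (vertical axis) on each of the 12 arrays (horizontal axis, replicates 1 to 4 of XY control, XY FOXL2+ and XX control) minus the gene's mean in XY control; the colour scale ends at -2 and 2. In the XY FOXL2+ block Mylk and Tpm1 are near the XY control level in replicates 3 and 4, and the 4 pericyte genes are blue in all 4 replicates.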

How the data were processed

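The deposited table holds 1 log-scale value per entry and array, taken here as log2 because the authors' values run from 2.60 to 19.49, and the sources used here do not state the base, background correction, summarization or normalization. Another base would rescale the differences without altering any test. The table carries no detection calls, and 4 arrays per group limit the precision. Per the labels' protocols, RNA was extracted with Picopure and 100 ng was amplified and labelled with the WT Plus kit. Nothing gives litter, day or batch.

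Of 72688 entries 6732 control probe sets were left out and 65956 clusters tested without a filter. Platform symbols were updated through RefSeq: 31258 clusters have 1 symbol, 1492 several and 33206 are unnamed here. The cluster with the highest mean over 12 arrays stands for a gene. limma 3.58.1 in R 4.3.3 (lmFit, eBayes with an intensity trend) was fitted over all 12 arrays, with 9 residual degrees of freedom, and Benjamini-Hochberg adjusted over all clusters. The fit was tried on simulated data with independent noise for each cluster and array. Deviations shared across an array were not simulated, so that trial is no support for the calls. Exact permutation of 4 against 4 arrays cannot go below a two-sided p of 0.0286, which each of the 15 genes that fell reached. As limma called these genes on the same arrays, that is no further support.

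Array values are printed for genes called with an absolute log2 difference of 1 or more in the FOXL2 effect or the sex difference, for the pericyte genes and for Srf and Myocd; those of Myl9, Tpm1, Cald1, Pln, Abcc9, Oxtr, Pecam1 and Cyp11a1 were added after their values were seen. From each context list at most 5 called genes per direction are named. One context list is not reported here. The genes and lists were chosen with earlier results of these data known. Alternatives were quantile normalization, a signal filter, fits of only the 2 groups, array weights, no trend, robust eBayes, a replicate block, averaging of clusters, and leaving out each array. Same-numbered arrays were checked for shared deviations. The promoters are those of the RefSeq table of assembly GRCm38.p6, and no build is given for the array values.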

Additional observations from a re-analysis of the deposited data

Results flagged for a closer look

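In each group of 4 arrays, the lowest or highest value was compared with its nearest neighbour, as the gap over the whole range of the group (Dixon's ratio, critical value 0.829). Of 99 sets of 4 arrays tested over the 33 genes, 4 passed, where chance gives about 1 in 20. Des read 7.76 in XY control replicate 2 with the nearest array at 7.47, and 7.35 in XX control replicate 3 with the nearest at 7.52. Rgs5 read 7.61 in XY FOXL2+ replicate 3 with the nearest at 7.86. Cspg4 read 7.13 in XX control replicate 3 with the nearest at 7.26.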

How the results depend on the processing

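Of the genes called, 14 of 15 in the FOXL2 effect, 20 of 24 in the sex difference and 2 of 7 in XY FOXL2+ minus XX control were called in every alternative, and no called gene changed sign. The genes that fell in the FOXL2 effect numbered 14 to 16 without single arrays, 9 to 10 of them contractile and all 4 pericyte genes. Those that rose numbered 0, with 1 after quantile normalization, above the median signal and under the replicate block, and 0 to 2 without single arrays. In the sex difference 19 to 21 were lower (12 to 13 contractile, 4 pericyte) and 1 to 3 higher without single arrays, with 1 higher without XX control replicate 2 or XY control replicate 3. In XY FOXL2+ minus XX control the 1 lower gene became 0 after quantile normalization, with only the 2 groups and under the replicate block, 3 with array weights, and 0 to 2 without single arrays. The 6 higher became 2 with only the 2 groups and under the replicate block, 11 with array weights, and 2 to 10 without single arrays.

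Values not called that changed sign were, in the FOXL2 effect, with array weights Myl9 -0.46, Synpo2 -0.044 and Actn1 0.0, and without single arrays Myl9 ranged from -0.38 to 0.33, Synpo2 from -0.044 to 0.036 and Lmod1 from -0.06 to 0.044. In the sex difference Des was 0.030 after quantile normalization and ranged from -0.082 to 0.029 without single arrays, and Vcl from -0.038 to 0.084. In XY FOXL2+ minus XX control Rgs5 ranged from -0.092 to 0.039 without single arrays.

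Of the partners and targets of serum response factor, 1 was called in the FOXL2 effect, 0 after quantile normalization, with only the 2 groups and under the replicate block, and 0 to 2 without single arrays. In the sex difference 7 became 11 with array weights, with 6 to 7 without single arrays. Against XX control 3 became 1 with only the 2 groups and 5 with array weights, with 1 to 6 without single arrays. Against XX control the other mural genes called went from 3 to 5 and the receptors and ligands from 3 to 6 with array weights. Without single arrays the mural genes called were 5 to 7, 5 and 3 to 5 and the receptors and ligands 4 to 6, 8 to 10 and 2 to 7 in the order of the comparisons.

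Over all clusters, quantile normalization moved the FOXL2 effect from 3077 lower and 1621 higher (34.5% higher) to 2656 and 2184 (45.1%), and the sex difference from 6732 and 4727 (41.3%) to 5385 and 6116 (53.2%). With only the 2 groups the FOXL2 effect gave 1891 and 809, and XY FOXL2+ minus XX control went from 1744 and 1891 to 972 and 944, and to 3084 and 3668 with array weights. Deviations of same-numbered arrays correlated between -0.06 and 0.08 in the FOXL2 effect and between -0.09 and 0.001 in the sex difference. In XY FOXL2+ minus XX control they correlated between 0.01 and 0.18. Arrays were closest to their own number in 0, 0 and 7 of 8 cases in that order. The main fit does not take the replicate numbers as pairs. Whether same-numbered XY FOXL2+ and XX control arrays share a source was not tested. Under the replicate block Itga8 (adjusted p = 0.0147) was called in the FOXL2 effect and Myl9 (0.0499) in the sex difference, the calls of Nr2f2 (0.0826), Maf (0.0503), Myf5 (0.0739), Myl12a (0.0744) and Csf1r (0.0627) in the FOXL2 effect and of Flna (0.065) in the sex difference ended, and against XX control those of Myh11, Mylk, Tpm2, Cnn2 and Actn1 ended (0.0502 to 0.0619). Among the context genes the block also ended the calls of Actb, Tgfbr1, Tek and Esam in the sex difference (0.0569 to 0.0757) and of Tgfb3, Tie1, Star, Cd68, Adgre1 and Maf against XX control (0.0569 to 0.0763). Low signal limits Lmod1, Synpo2, Pln, Kcnmb1, Filip1l, Cnn1 and Actg2, whose lower values lie where silent genes read. Averaging clusters changed no difference of the 33 genes, since each has 1 cluster.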
